A study of Mus musculus with 6 samples.

Results

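The 10 genes described here end the response of mouse photoreceptors to light and restore the dark state: Guca1a, Guca1b, Gucy2e, Gucy2f, Rcvrn, Grk1, Rgs9, Gnb5, Rgs9bp and Slc24a1. They were chosen by symbol for their role in recovery and calcium feedback, and all 10 were found in every library, among 19401 genes listed in at least 1 of them (17843 to 18100 per library). Gene expression was measured by RNA sequencing of pooled retina in 3 control and 3 efavirenz (EFV)-treated 5XFAD samples. Efavirenz is an anti-HIV drug that at a low dose activates CYP46A1, a cholesterol hydroxylase, and the comparison addressed what the drug does to the retina of these mice.

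Mice of both groups were hemizygous 5XFAD animals on the B6SJL background, a model of Alzheimer's disease that carries mutant human transgenes, APP among them, in controls and treated animals alike. All were 9 months old. EFV was given in the drinking water at 0.08 mg per kg of body weight a day per the labels (the study's methods give a slightly higher daily dose) from 3 to 9 months of age. Control mice did not receive the drug, and per the methods they were given its aqueous detergent vehicle. Each library was a pool from 5 to 6 mice, which the methods describe as male and as giving retina together with the retinal pigment epithelium (RPE). Non-transgenic mice were not part of the comparison. The spread between libraries is therefore a spread between pools, and variation between single animals was not measured.

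Light closes the cation channels of the rod outer segment because light-activated visual pigment, through the G protein transducin, turns on a phosphodiesterase that destroys cyclic GMP. Recovery needs each of these steps to be shut off and cyclic GMP to be remade: the pigment is phosphorylated by its kinase, transducin is switched off by a GTPase-accelerating complex, and membrane guanylate cyclases make new cyclic GMP. Calcium sets the pace, since channel closure stops calcium entry while an exchanger goes on removing it, and the fall in calcium frees the cyclase activators and releases the kinase from recoverin.

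The 11 rod markers used here, Gnat1 among them, were above 0 in all 6 libraries, and the 10 genes were expressed in every library. On the FPKM scale (fragments corrected for transcript length and for the number of mapped fragments, which can be compared between genes), mean levels over the 6 libraries ran from 989 for Guca1a, the gene of rank 18 among 17705 genes with an Entrez identifier, to 32.8 for Gucy2f, at rank 2056. In order of level they were Guca1a, Rcvrn, Guca1b, Gnb5, Slc24a1, Grk1, Rgs9, Rgs9bp, Gucy2e and Gucy2f. Neighbours in this order did not overlap over the 6 libraries, except Guca1a with Rcvrn and Grk1 with Rgs9, where the first of the pair was higher in 5 of 6 libraries. Estimated counts per library lay between 7295 and 42841 for these genes, so that counting error alone (a coefficient of variation of 0.492% to 1.12%) was small beside the spread between pools of a group for most of them (0.629% to 10.99%).

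Total expected counts were 23455167 to 24590278 per library. Control 2 stood apart in RPE markers and control 3 in lens markers. Among 6 RPE markers, whose summed FPKM was lowest in control 2 (26.7), 3 were higher in EFV-treated retina at the limits of the study. These were an unadjusted p of at most 0.05 with a difference of at least 7%, applied here to the p of edgeR. Of all genes, 3.01% passed them in either direction. Lens markers summed to 166.5 FPKM in control 3, against 5.32 and 6.64 in control 1 and control 2 and 3.64 to 7.31 in the treated libraries, and 5 of the 5 tested passed as lower in EFV-treated retina, with only control 3 outside the treated range. Without control 2, 0 of the 10 genes passed the limits of the study, beside 2.52% of all genes, and without control 3, 1 did, beside 3.39%. Cone markers (572.0 to 631.6 and 547.9 to 651.1 FPKM), Müller glia markers (1077 to 1131 and 1071 to 1118) and bipolar cell markers (274.0 to 296.4 and 279.7 to 285.0) overlapped between the groups. The part of these differences in the values of the 10 genes was not tested.

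None of the 10 genes was called between EFV-treated and control retina by edgeR, which takes the spread between pools into account. Across all 15537 genes tested, edgeR's quasi-likelihood test with Benjamini-Hochberg adjustment called 0% at an adjusted p of 0.05, with a smallest adjusted p of 0.323, and the adjusted p of all 10 genes was 0.999. DESeq2 called 11 genes, none of them among the 10. A Poisson model, which leaves the spread between pools out, called 13.1% of all genes and 7 of the 10 at an adjusted p of 0.05. An unadjusted p of at most 0.05 was reached by 3.04% of all genes in edgeR and by 0 of the 10. At the limits of the study, applied here to the p of edgeR, 3.01% of all genes were called and 0 of the 10 were. Applied to the p of DESeq2 or of the Poisson model, the limits called 1 of the 10, Guca1b. Of all 15537 genes they called 269 with DESeq2 and 2305 with the Poisson model. In edgeR, the log2 fold changes of the 10 genes (EFV over control) ran from -0.077 to 0.14, with a median of 0.015 against 0.0012 over all genes. Values above 0 were found for 7 of the 10 and for 50.5% of all genes. All 10 of the 95% intervals held 0, and together they spanned folds of 0.865 to 1.24.

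**Figure D1:**
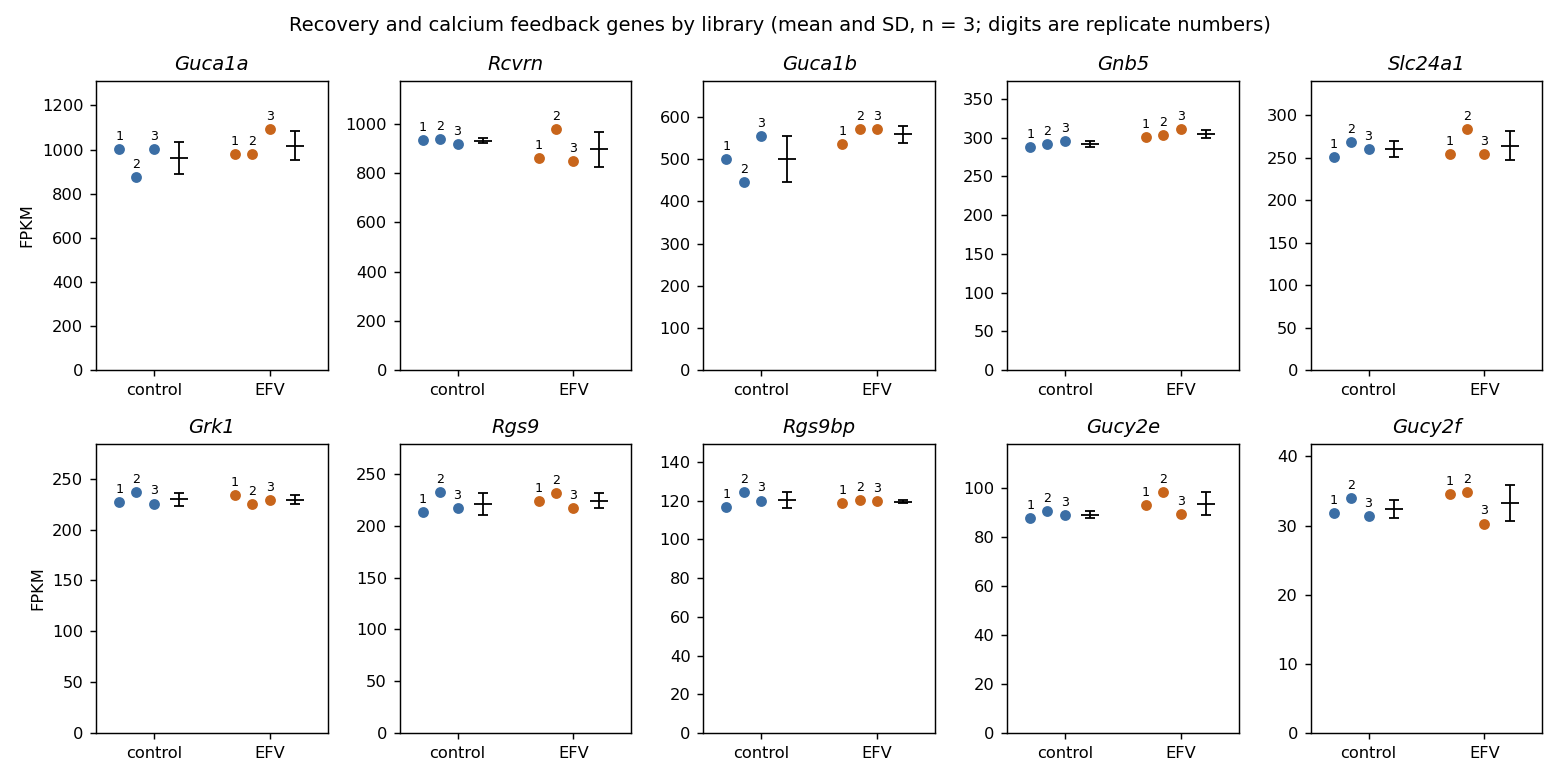
FPKM of each gene (vertical axes, starting at 0) in the 3 control and 3 EFV-treated libraries, with replicate numbers over the points and mean and SD beside them. The groups overlapped for 9 genes, and the 3 EFV-treated libraries of Gnb5 (300.3 to 310.9) lay just above the 3 controls (287.5 to 295.1).

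The promoters of 4 of these genes share a sequence feature that the choice of genes did not use, and they are shown so that it can be seen where it lies. CRX, a homeodomain factor of rods and cones, recognises the core TAATCC, which reads as GGATTA when it lies on the opposite strand. RefSeq promoter sequences (build GRCm38.p6) were matched for 7 of the 10 genes, and not for Guca1b, Rcvrn and Rgs9bp. In the 250 bases upstream of the start, on either strand, the core was present in 4 of the 7 and in 7.21% of 27025 genes. The motif was picked with the genes known, so this share is a description, and a match of letters is not a binding site. The 120 bases that precede each start are printed 5′ to 3′ on the strand of the gene, with the core in capitals.
Guca1a, chr17:47400607-47400726, minus strand: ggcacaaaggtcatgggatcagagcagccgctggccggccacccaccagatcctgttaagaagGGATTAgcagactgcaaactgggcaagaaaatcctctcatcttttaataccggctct
Gucy2e, chr11:69237023-69237142, minus strand: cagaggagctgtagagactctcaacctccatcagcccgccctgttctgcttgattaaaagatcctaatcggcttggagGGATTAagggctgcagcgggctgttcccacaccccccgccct
Gucy2f, chrX:142196937-142197056, minus strand: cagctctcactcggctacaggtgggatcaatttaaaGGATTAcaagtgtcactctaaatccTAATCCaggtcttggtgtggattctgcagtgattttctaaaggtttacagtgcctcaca
Gnb5, chr9:75306168-75306287, plus strand: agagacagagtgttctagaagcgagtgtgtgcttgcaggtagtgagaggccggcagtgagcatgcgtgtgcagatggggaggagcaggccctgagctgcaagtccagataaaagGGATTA
Gucy2f held the core at 2 places in this window, and the other genes at 1.

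Guca1a and Guca1b encode the guanylate cyclase-activating proteins GCAP1 and GCAP2, calcium sensors that stimulate the cyclases when calcium falls after a flash. They are neighbours on mouse chromosome 17 (mm10): Guca1b at chr17:47385393-47392967 on the plus strand and Guca1a at chr17:47394558-47400584 on the minus strand, with 1590 bases between their 3′ ends. Guca1a was at 1000.8, 877.1 and 1004.4 FPKM in control libraries 1, 2 and 3, and at 980.0, 979.5 and 1092.2 in the EFV-treated libraries. Control 2 was the lowest and EFV 3 the highest, and the other 4 libraries lay close together across both groups. The means were 961 ± 72.5 in control and 1017 ± 64.9 in EFV-treated retina (SD, n = 3 pools each), a log2 fold change of 0.066 (SE 0.059; 95% interval -0.066 to 0.20) with an adjusted p of 0.999 by edgeR. Without control 2 it was 0.013.

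Guca1b was at 499.7, 445.5 and 555.4 FPKM in the controls and at 534.6, 570.7 and 570.6 in the EFV-treated libraries. Control 2 was again the lowest, while control 3 lay inside the range of the treated pools. Of the 10 genes this was the one with the largest fold change: 500.2 ± 55.0 in control and 559 ± 20.8 in EFV-treated retina, a log2 fold change of 0.14 (SE 0.072; 95% interval -0.019 to 0.30; unadjusted p = 0.0772, adjusted p = 0.999 by edgeR). Without control 2 the log2 fold change was 0.071, and without control 3 it was 0.22, the latter with an unadjusted p of 0.00709 (edgeR). Part of the reads of both genes were shared between features by the estimator, since their counts were not whole numbers in any library. The same held for Rcvrn and Grk1, and which features shared the reads is not given in the sources used here. When Guca1a and Guca1b were added together and fitted as 1 gene, the log2 fold change was 0.10 (SE 0.059; adjusted p = 0.999, edgeR).

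Control 2, the lowest library for both genes, also had the least RPE signal. The summed FPKM of 6 RPE markers was 26.7 in that library, against 46.1 to 57.1 in the other 5 libraries. With the RPE marker level as a covariate, the log2 fold change of Guca1a was -0.044 and that of Guca1b 0.022 (unadjusted p of 0.373 and 0.748, edgeR). The same covariate moved others away from 0, with log2 fold changes of 0.13 for Gucy2f, 0.11 for Gucy2e, 0.086 for Rgs9 and 0.067 for Slc24a1, and 0 of the 10 passed the limits of the study. The geometric mean FPKM of the 6 markers was 3.11, 2.08 and 3.26 in the controls and 3.27, 3.38 and 4.15 in the EFV-treated libraries. On this scale the groups did not overlap, by a narrow margin. The summed FPKM did overlap, at 26.7 to 50.5 in control and 46.1 to 57.1 in EFV-treated libraries. The covariate itself was the mean log2 of the TMM-scaled counts of the markers, whose values are not given here. All 6 markers had log2 fold changes above 0, so the covariate cannot fully tell RPE content and treatment apart. The part of RPE content in these values was not tested beyond this.

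Gucy2e and Gucy2f encode the membrane guanylate cyclases of photoreceptors, which remake cyclic GMP and are the targets of the GCAPs. Gucy2e is at chr11:69218117-69237036 and Gucy2f at chrX:142081160-142196931, both on the minus strand (mm10). Gucy2e was at 88.0, 90.7 and 89.0 FPKM in the controls and 93.1, 98.5 and 89.3 in the EFV-treated libraries. The 3 controls lay within 3 FPKM of each other, and EFV 3 was level with them. Its means were 89.2 ± 1.39 and 93.6 ± 4.63 (SD, n = 3), a log2 fold change of 0.055 (SE 0.051; adjusted p = 0.999, edgeR). Gucy2f was at 31.9, 33.9 and 31.4 FPKM in the controls and at 34.6, 34.9 and 30.3 in EFV-treated retina. The highest and the lowest values were both from treated pools, EFV 2 and EFV 3. The means were 32.4 ± 1.32 and 33.25 ± 2.57, a log2 fold change of 0.022 (SE 0.068; adjusted p = 0.999, edgeR).

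Rcvrn encodes recoverin, which holds the visual pigment kinase inactive while calcium is high, and Grk1 encodes that kinase, which phosphorylates activated pigment so that arrestin can bind. Rcvrn (chr11:67695326-67703333, plus strand, overlapping Glp2r on the minus strand) was at 935.3, 938.1 and 918.4 FPKM in the controls and at 862.15, 977.6 and 848.9 in EFV-treated retina. The treated pools enclosed the controls, with EFV 2 above and EFV 1 and EFV 3 below all of them. The means were 931 ± 10.7 and 896 ± 70.8, and the log2 fold change was the lowest of the 10, at -0.077 (SE 0.059; 95% interval -0.21 to 0.056; adjusted p = 0.999, edgeR). Without EFV 2 the log2 fold change was -0.15, with an unadjusted p of 0.00933 (edgeR), and 3.5% of all genes passed the limits of the study in that setting. Grk1 (chr8:13405081-13421951, plus strand) was at 226.8, 237.05 and 225.7 FPKM in the controls and at 234.0, 225.2 and 229.4 in the treated libraries. It was among the steadiest of the 10 genes, and its highest library was only 1.05 times its lowest. Its means were 229.8 ± 6.28 and 229.5 ± 4.40, with a log2 fold change of -0.018 (SE 0.039; adjusted p = 0.999, edgeR).

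Rgs9, Gnb5 and Rgs9bp encode the complex that speeds GTP hydrolysis by transducin, the step that limits how fast a rod recovers. Rgs9 is the catalytic subunit, Gnb5 its obligate G protein beta subunit and Rgs9bp the anchor that holds both at the disc membrane. Rgs9 (chr11:109225355-109298129, minus strand) was at 213.5, 232.9 and 217.2 FPKM in the controls and at 223.7, 232.3 and 217.7 in EFV-treated retina. Control 2 and EFV 2 were level at the top. The means were 221 ± 10.3 and 225 ± 7.32, a log2 fold change of 0.0047 (SE 0.050; adjusted p = 0.999, edgeR). Rgs9bp (chr7:35578993-35585582, minus strand) was at 116.6, 124.55 and 120.1 FPKM in the controls and at 118.7, 120.15 and 119.9 in the treated libraries. The treated values lay inside the range of the controls, with a log2 fold change of -0.026 (SE 0.044; adjusted p = 0.999, edgeR).

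Gnb5 (chr9:75306288-75345876, plus strand) was the only one of the 10 whose groups did not overlap, which 7.67% of all genes showed in either direction and 4.99% with EFV higher. It was at 287.5, 292.0 and 295.1 FPKM in the controls and at 300.3, 303.2 and 310.9 in the EFV-treated libraries. All 3 treated pools lay above all 3 controls, by a narrow margin. The means were 291.5 ± 3.85 and 305 ± 5.49 (SD, n = 3), and the log2 fold change of 0.048 (SE 0.040; 95% interval -0.042 to 0.14) had an adjusted p of 0.999 by edgeR. Gnb5 overlaps 2 annotated antisense genes, Gm19531 and Gm48677, and the strand setting of the counting is not given in the sources used here, so reads of these genes may be mixed.

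Slc24a1 encodes NCKX1, the sodium/calcium-potassium exchanger that clears calcium from the rod outer segment. At chr9:64922861-64951607 on the minus strand, it was at 250.5, 268.7 and 260.1 FPKM in the controls and at 254.1, 283.25 and 254.6 in EFV-treated retina. EFV 2 was high, and EFV 1 and EFV 3 lay within the controls. The means were 260 ± 9.11 and 264 ± 16.7, with a log2 fold change of 0.0074 (SE 0.058; 95% interval -0.12 to 0.14; adjusted p = 0.999, edgeR).

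**Figure D2:**
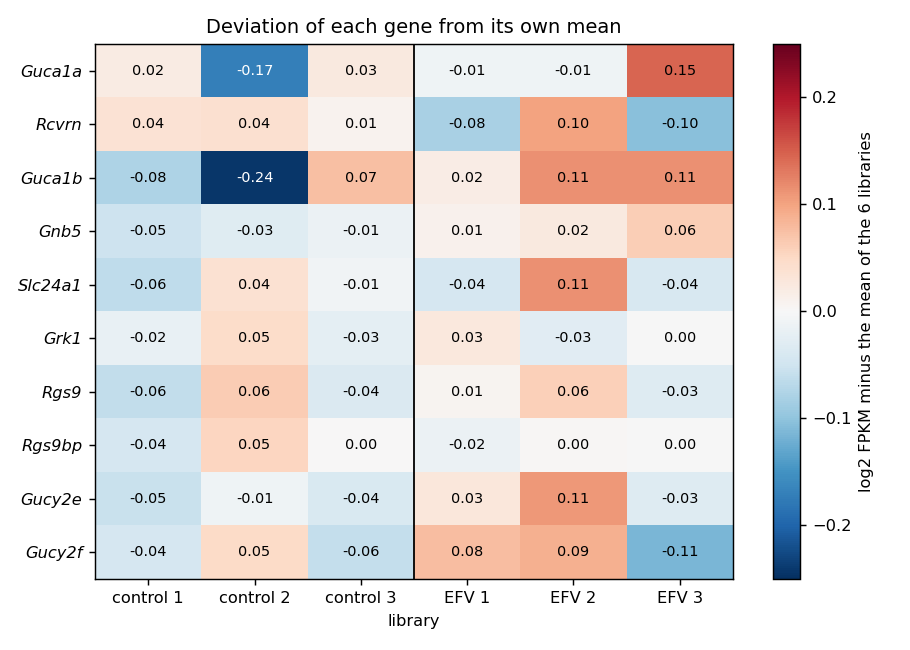
Log2 FPKM of each gene (vertical axis) in each library (horizontal axis) minus its mean over the 6 libraries; blue is below and red above the mean. The deepest cells are those of Guca1b (-0.24) and Guca1a (-0.17) in control 2, and no library is low or high for all 10 genes.

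The highest and lowest libraries differed from gene to gene. EFV 2 was the highest library for 5 genes, control 2 for 3 and EFV 3 for 2. Control 1 was the lowest for 5 genes. Control 2 was the lowest for the GCAP genes yet the highest for Grk1, Rgs9 and Rgs9bp, so the 10 genes did not move as a block between pools.

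**Figure D3:**
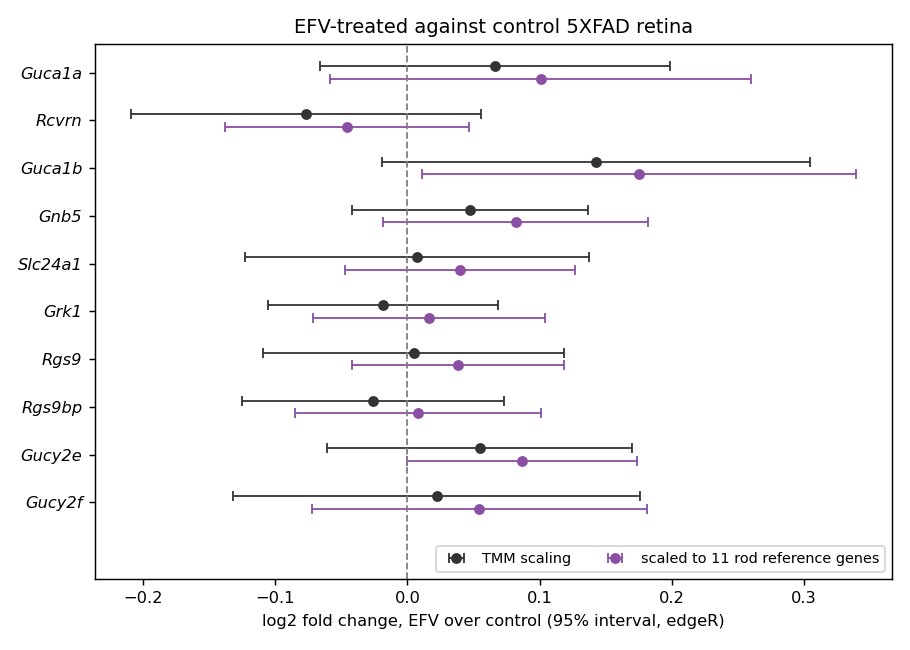
Log2 fold change of each gene, EFV over control, with its 95% interval from edgeR (horizontal axis), under TMM scaling (black) and after scaling each library to 11 rod genes (purple). All 10 black intervals hold 0, and after rod scaling the interval of Guca1b (0.011 to 0.34) does not.

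Since fewer rods and less RNA per rod cannot be told apart in bulk retina, the genes were also read against 11 rod genes (among them Gnat1, Pde6b, Pde6g, Sag and Nrl). Most of these 11 also belong to the rod activation genes described below. Their median log2 fold change was -0.026, and 1 of them passed the limits of the study as lower in EFV-treated retina. Their summed FPKM was 28200 to 29160 in the controls and 26874 to 28521 in the EFV-treated libraries. Scaling each library to the rod genes moved the log2 fold change of the median gene by 0.034 and left 9 of the 10 above 0, as it did 66.9% of all genes. Guca1b then passed the limits of the study with a log2 fold change of 0.18 (SE 0.074; unadjusted p = 0.0389, adjusted p = 0.998, edgeR), as did 2.62% of all genes. Gucy2e, at 0.087 (SE 0.039; unadjusted p = 0.05001, edgeR), fell short of both the p limit and the difference of 7%.

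Relative to the geometric mean of the rod genes in the same library, Gucy2e stood at 7.61%, 7.74% and 7.66% in the controls and at 8.18%, 8.27% and 7.99% in EFV-treated retina. On this scale its groups did not overlap, with EFV higher, as held for 5.35% of all genes. Gnb5 stood at 24.9%, 24.9% and 25.4% in the controls and at 26.4%, 25.4% and 27.8% in the treated libraries, without overlap by a margin in the second decimal. The other 8 genes overlapped.

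The balance between partners was compared within libraries, where scaling has no effect. For 6 ratios of FPKM values, a two-sided exact permutation test of 3 against 3 pools cannot give a p under 0.1, and all 6 had an adjusted p of 0.6 (Benjamini-Hochberg). The 2 groups overlapped in all 6 ratios. Guca1b relative to Guca1a was 0.520 ± 0.0288 in control and 0.550 ± 0.0304 in EFV-treated retina (SD, n = 3; exact p = 0.3), so that GCAP1 mRNA was the more abundant of the GCAP pair in every library. Guca1b relative to the cyclase gene Gucy2e was 5.61 ± 0.668 and 5.98 ± 0.361 (exact p = 0.4).

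Gucy2e exceeded Gucy2f by a ratio of 2.76 ± 0.0777 in control and 2.82 ± 0.128 in EFV-treated retina (n = 3, exact p = 0.5). Rcvrn exceeded Grk1, the kinase it restrains, by 4.05 ± 0.0852 and 3.91 ± 0.375 (exact p = 0.4). In the treated pools that ratio was 3.68, 4.34 and 3.70, on either side of the controls at 3.96 to 4.12. Within the GTPase complex, Rgs9 relative to Rgs9bp was 1.84 ± 0.0312 and 1.88 ± 0.0590 (exact p = 0.4), and Gnb5 relative to Rgs9 was 1.32 ± 0.0573 and 1.36 ± 0.0629 (exact p = 0.6).

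**Figure D4:**
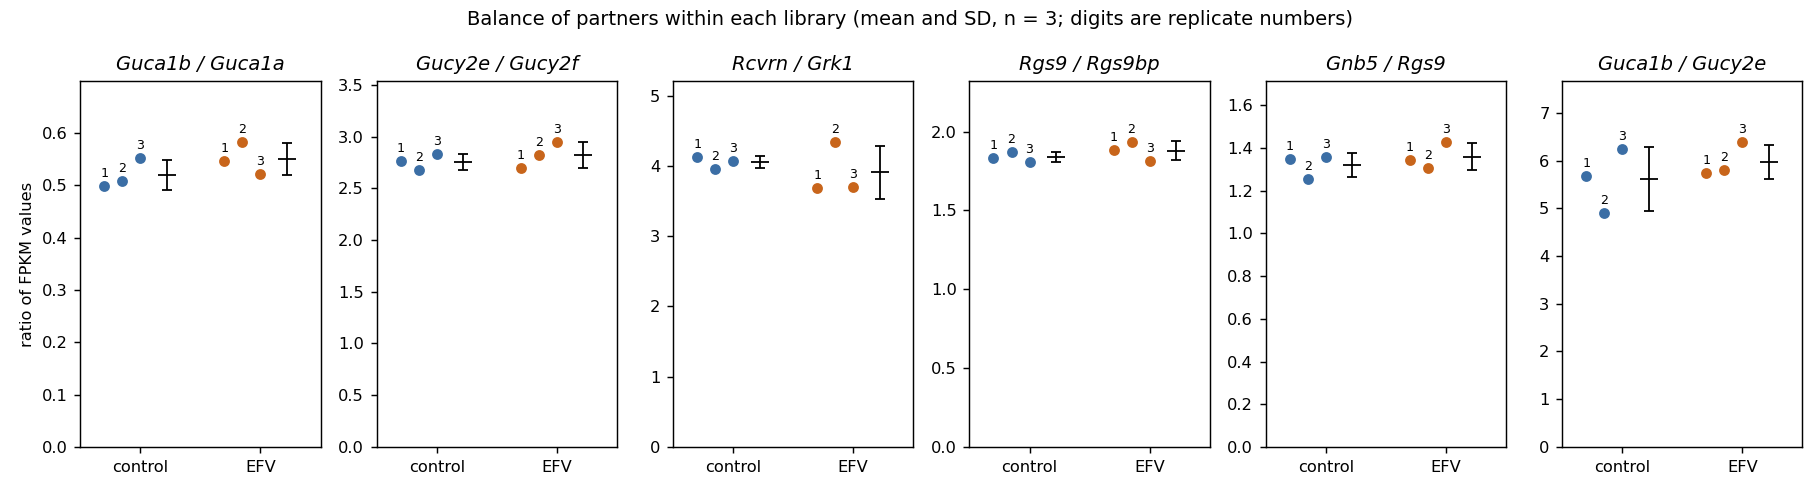
Ratio of FPKM values of 2 partner genes within each library (vertical axes, starting at 0), for 3 control and 3 EFV-treated libraries, with mean and SD beside the points. The groups overlap in all 6 panels.

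Most of these genes were also the main members of their protein families in this tissue. Grk1 made up 79.9% to 81.5% of the summed FPKM of 6 G protein-coupled receptor kinases, ahead of Grk2 with 8.56% to 9.29%. Gucy2e and Gucy2f made up 64.6% to 65.6% and 21.98% to 24.3% of 7 membrane guanylate cyclases, and Npr2, a natriuretic peptide receptor, 9.77% to 12.4%. Among 9 neuronal calcium sensors Guca1a (35.4% to 39.6%), Rcvrn (30.8% to 37.8%) and Guca1b (18.0% to 20.8%) were followed by Hpca with 2.03% to 2.36%.

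Rgs9 held 77.0% to 80.4% of the R7 family of RGS proteins, and Rgs11, which serves ON bipolar cells, 9.49% to 12.7%. Rgs9bp held 92.5% to 93.2% of the summed FPKM of Rgs9bp and Rgs7bp, and Slc24a1 held 75.2% to 77.6% of 5 exchangers of its family, with Slc24a3 next. Gnb5 was the exception: Gnb1, the beta subunit of rod transducin, took 73.7% to 76.0% of the G protein beta subunits and Gnb5 12.8% to 14.1%, with Gnb3, the beta subunit of cone transducin, at 8.57% to 9.65%. Shares of Gnb5 cannot be assigned to photoreceptors, since it also partners the R7 proteins of other retinal neurons.

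**Figure D5:**
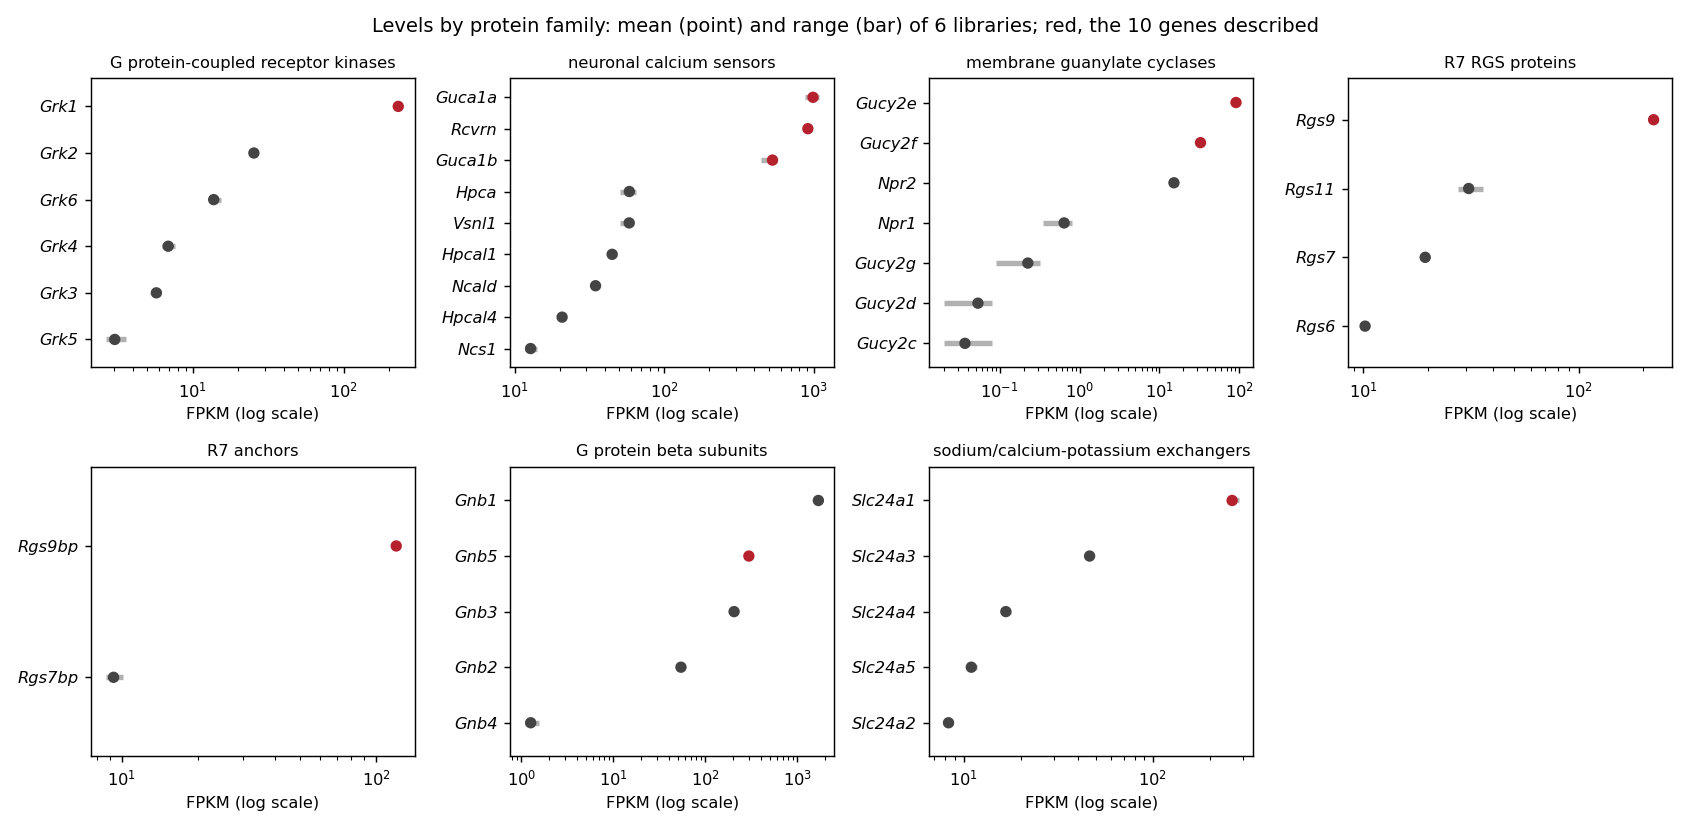
FPKM (horizontal axes, log scales that differ between panels) of the genes of 7 protein families; points are means and bars ranges of the 6 libraries, with the 10 genes in red. Red points lead in every family except the G protein beta subunits, where Gnb1 is higher.

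Other genes of the light response gave the setting of these values. Of 9 rod activation genes, 1 passed the limits of the study (3.01% of all genes did), and their median log2 fold change was -0.049, with 2 above 0 (50.5% of all genes). The count fell to 0 without control 1, control 2, EFV 1 or EFV 3. That gene was Pde6g, the inhibitory subunit of the rod phosphodiesterase, at 2416 ± 154.0 FPKM in control and 2224 ± 36.4 in EFV-treated retina (log2 fold change -0.14, SE 0.051; unadjusted p = 0.0244, adjusted p = 0.999, edgeR). Gnat1, the alpha subunit of rod transducin, was at 7847 ± 268.9 and 7599 ± 70.7 FPKM, with a log2 fold change of -0.063 (SE 0.033; adjusted p = 0.999, edgeR). The activation genes thus had a median below 0 where the 10 recovery genes had one just above 0, and neither list was set apart from the other by a test. Most of the activation genes were also rod reference genes. Their median and the upward shift of the 10 genes after rod scaling are therefore not separate observations.

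Of 9 cone cascade genes 0 passed these limits, with a median log2 fold change of -0.019. Of 15 other shutoff and calcium genes 1 did, though 0 did without control 1, control 2, EFV 1 or EFV 3, and the median was 0.0067. The gene was Calm2, a calmodulin gene, at 310.3 ± 5.20 FPKM in control and 293 ± 2.07 in EFV-treated retina (log2 fold change -0.10; unadjusted p = 0.0409, adjusted p = 0.999, edgeR). Sag, the rod arrestin that caps phosphorylated pigment, was at 3293 ± 468.3 and 3271 ± 128.5 FPKM. Pdc, phosducin, which binds transducin beta-gamma, was at 1451 ± 215.7 and 1227 ± 170.6 FPKM, with a log2 fold change of -0.26 (SE 0.12; adjusted p = 0.999, edgeR). Of 27 family relatives 25 could be tested and 0 passed.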

How the data were processed

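Total RNA of the pooled samples was sequenced by a commercial provider. Per the labels and the submitters' processing notes, reads were handled with HISAT2 2.0.4, Bowtie2 2.2.5 and RSEM 1.2.12 on mm10. The authors deposited, for each library, RSEM expected counts (estimated, not always whole), FPKM values (corrected for length and depth) and transcript lengths per gene. Filter settings, annotation release and strandedness are not given in the sources used here.

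Expected counts were rounded, a gene was kept where 3 or more libraries reached 10 counts (15537 genes), and edgeR 4.0.16 (R 4.3.3) fitted a quasi-likelihood model with TMM scaling and group only, with Benjamini-Hochberg adjustment over all genes kept. All 10 genes passed this filter. The procedure was checked on simulated data. Partner ratios were compared by exact permutation. Alternatives covered scaling, filters, DESeq2 1.42.0, limma 3.58.1 on log2(FPKM + 0.1) and log2(FPKM + 1), a Poisson model, covariates and omission of each library. Positions came from the GENCODE mouse annotation on mm10, promoters from RefSeq.

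The 10 genes, the gene lists and the tests were chosen with earlier results of these data known. Besides the 10, genes were named from the 3 most abundant of a list or those with an unadjusted p of at most 0.05. Not all genes that met this rule are named. The next most abundant relatives were named within families. Replicates were pools, so p-values measure the spread between pools only. No sample was left out of the main comparison. Some items are not reported here.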

Additional observations from a re-analysis of the deposited data

How the results depend on the processing

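Counting error was small for these genes, and with 3 pools per group the intervals covered folds of 0.865 to 1.24. No gene passed an adjusted p of 0.05 with edgeR, while 11 did with DESeq2 and 2043 with a Poisson model that ignores the spread between pools; leaving out a library gave 0 to 1. At the limits of the study the 467 genes (228 higher, 239 lower) became 269 (124 and 145) with DESeq2 and 2305 (1133 and 1172) with the Poisson model, and total count scaling gave 288 higher and 159 lower; leaving out a library gave 389 to 576 (182 to 269 higher, 206 to 307 lower). Of the 10 genes, 0 passed these limits, against 1 with rod scaling, 1 with DESeq2 and 1 with the Poisson model (Guca1b in these 3), and 0 to 1 without a library; 7 of the 10 passed an adjusted p of 0.05 in the Poisson model.

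The rod activation count of 1 was 0 with limma at a pseudocount of 0.1 (0 to 2 without a library). The count of 1 among other shutoff and calcium genes was 0 with upper quartile, total count and rod scaling and with limma at 0.1 (0 to 2). Cone cascade genes gave 0 to 1 and family relatives 0 to 2 without a library. The sign turned with the RPE covariate for Guca1a (-0.044), Grk1 (0.030) and Rgs9bp (0.018), and with rod scaling for Grk1 (0.016) and Rgs9bp (0.0081). Without a library, log2 fold changes ran from -0.024 to 0.090 for Gucy2f, -0.034 to 0.011 for Grk1, -0.030 to 0.050 for Rgs9, -0.055 to 0.0049 for Rgs9bp and -0.056 to 0.039 for Slc24a1. The cause was not tested.

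Replicate numbers were not taken as a pairing: deviations of same-numbered libraries correlated at 0.126, 0.0795 and 0.1001, although every library correlated best with its own number, a hint from the data and not the design. With the replicate block, 0 genes passed the adjusted p, 514 passed the limits and 0 of the 10 did. All 6 partner ratios kept their sign under the alternatives run, but some came near 0: Guca1b over Gucy2e ran from 0.0032 (without control 2) to 0.18 (without control 3) on the log2 scale, Gucy2e over Gucy2f was 0.0016 without EFV 3, and Gnb5 over Rgs9 was 0.0055 without EFV 3 or control 2.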
